A study of Mus musculus with 6 samples.

Results

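The genes described here encode the cytosolic translation initiation and elongation factors of the mouse, with the enzymes named after them. They were all rows of the deposited gene table whose name begins with Eif1 to Eif6, Eef1 or Eef2, leaving out the Eif2ak kinases. This gave 62 of 13348 listed genes and 131 of 24676 listed transcripts. The samples were orbitofrontal cortex of C57BL/6 mice aged 12 weeks, in 2 groups of 3 libraries. Knockdown libraries 1 to 3 (labelled SH) came from mice whose orbitofrontal cortex was injected with lentivirus for a short hairpin RNA (shRNA); its target is the junction that closes circHomer1a, the circular RNA of Homer1. Control libraries 1 to 3 had a scrambled shRNA by the series title alone; the treatment label of the control samples describes only the SH group. The labels give no promoter or target cell type for the shRNA and do not say whether the 3 samples of a group were separate animals, so p-values reflect a spread that may be technical. Values are FPKM (fragments scaled by feature length and library total). A gene value could differ from the sum of the gene's listed transcripts (37.1 against 122 FPKM for Eif3k in knockdown 1). Levels and rankings of genes are of gene values unless transcripts are named, and comparisons between genes can depend on that choice. The series compared gene expression between the groups.

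Translation begins when eIF4E binds the cap of an mRNA and, with the scaffold eIF4G and the helicase eIF4A, draws in a small ribosomal subunit that carries eIF3, eIF1, eIF1A and eIF2 with the initiator tRNA. eIF2B recharges eIF2 with GTP and is the point at which cellular stress slows initiation. During elongation eEF1A brings aminoacyl-tRNA to the ribosome, the eEF1B subunits recharge eEF1A, and eEF2 moves the ribosome along the mRNA until eEF2 kinase inactivates it. In neurons these factors also act in dendrites, where local protein synthesis follows synaptic activity.

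Many mRNAs of translation factors and ribosomal proteins start with an unbroken run of pyrimidines, through which mTORC1 signalling and the protein Larp1 control their translation. The start regions below are shown because genes whose values are set side by side later, above all Eef1a1 and Eef1a2, differ there by the marking rule used. They come from RefSeq (build GRCm38.p6) and run from 35 bases before the annotated start to the first 20 transcribed bases, with capitals marking a run of at least 8 C or T that reaches within 5 bases of the start. In Eef1a2 the longest run reaching within 5 bases of the start had 5 bases. A longer one further upstream is not marked. Marked runs can include bases before the annotated start, which the annotated mRNA lacks. From that start on, Eef1a1 reads TTCCCGAGGG and Eef1a2 reads GTTCTCGCTC, so part of the run marked in Eef1a1 lies upstream of its start.
Eef1a1, chr9:78481705-78481759, minus strand: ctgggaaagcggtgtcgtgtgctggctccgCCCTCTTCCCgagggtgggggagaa
Eef1a2, chr2:181156996-181157050, minus strand: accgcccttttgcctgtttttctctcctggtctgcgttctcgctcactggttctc
Eif3f, chr7:108934380-108934434, plus strand: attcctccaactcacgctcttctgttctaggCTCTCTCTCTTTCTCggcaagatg
Eif2b5, chr16:20498782-20498836, plus strand: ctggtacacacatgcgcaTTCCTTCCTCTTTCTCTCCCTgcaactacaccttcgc
Eif2s3x, chrX:94212632-94212686, minus strand: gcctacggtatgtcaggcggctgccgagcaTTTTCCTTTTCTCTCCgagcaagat
Eif2s3y, chrY:1010560-1010614, plus strand: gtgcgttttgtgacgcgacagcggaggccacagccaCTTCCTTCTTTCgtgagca
The promoter table matched 48 of the 62 genes by symbol. A run was found in 10 of their 62 promoters (16.1%), against 3081 of 32851 promoters in the whole table (9.38%). It was read on the transcribed strand only, and its presence or absence in these windows is a description of letters.

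Libraries were similar in scale, with FPKM sums over the listed genes between 256047 and 285833. Read depth was unknown, so precision was taken from the replicates. All 8 neuron markers were listed, with summed levels of 934 to 1037 FPKM in knockdown and 856 to 1259 FPKM in control libraries. The 8 myelin markers summed to between 1281 and 1718 FPKM in knockdown and between 1094 and 1371 FPKM in control libraries. The 5 erythrocyte markers summed to between 320.0 and 598 FPKM in knockdown libraries, and to 394, 1665 and 542 FPKM in control 1, 2 and 3. The 6 striatal neuron markers summed to between 294 and 355 FPKM in knockdown libraries and to 415, 561 and 191 FPKM in control 1, 2 and 3. The 6 astrocyte (84.4 to 106 FPKM), 8 microglia (171 to 213 FPKM) and 6 endothelial markers (44.8 to 67.3 FPKM) had these ranges over all 6 libraries, and the only listed choroid plexus marker of 4 was at 12.9 FPKM in control 2 and at most 2.01 FPKM elsewhere. In bulk tissue, fewer cells of a type and less RNA per cell cannot be told apart.

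No translation factor gene rose or fell past the threshold. Limma (adjusted p below 0.05 over all genes tested) called 0 of the 60 translation factor genes with a mean of at least 1 FPKM, against 0% of all 11961 genes tested. The smallest adjusted p among them was 0.948. An unadjusted p below 0.05 was reached by 1 of the 60, Eif2b4, against 3.57% of all genes. Every knockdown library lay above every control library for Eif5a2 and Eif4g1, against 4.45% of all genes, and below every control library for Eif4g3 and Eif3j1, against 3.47% of all genes. Those counts are near or below the background. The log2 fold change was positive in 22 and negative in 38 of the 60, with a median of -0.04, where all genes had a median of 0.02 and were positive in 55.7%. When every library was rescaled to one common FPKM sum, the medians were 0.02 for the translation factors and 0.07 for all genes.

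The 95% interval of the log2 fold change reached a median of 0.25 to each side of it, against 0.29 for all genes. It lay within a 1.5-fold change in either direction for 57 of 60 genes (95%), against 79.2% of all genes. These intervals are on the scale of FPKM + 1, which understates changes of low genes. The exceptions were Eif5, Eif2b4 and Eif4ebp3.

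**Figure D1:**
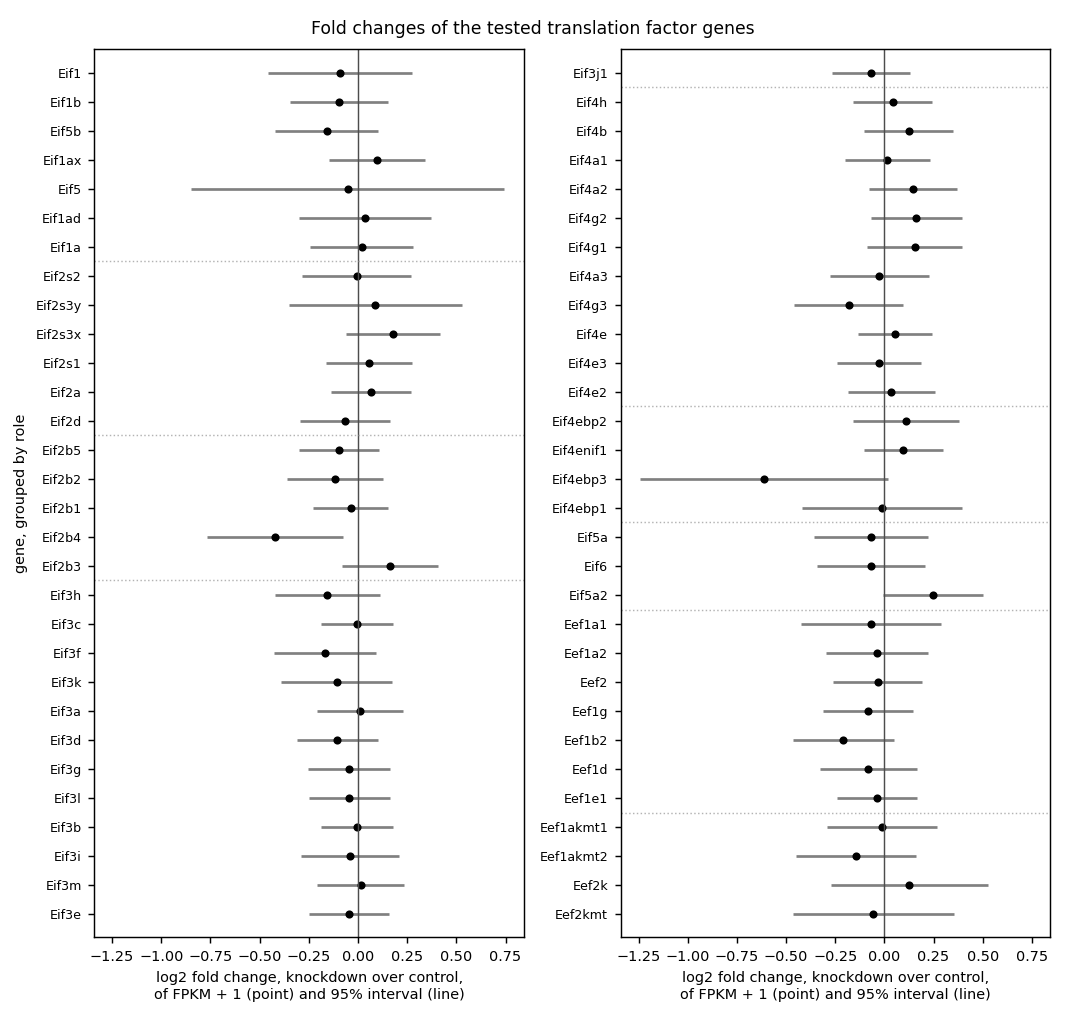
Log2 fold change of FPKM + 1, knockdown over control (x axis), for each of the 60 tested translation factor genes, grouped by role (dotted lines); points are estimates and lines 95% intervals, 3 libraries a group. Only the interval of Eif2b4 excludes 0, and its adjusted p is 0.948; those of Eif5 and Eif4ebp3 are the widest.

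The 3 genes with the highest levels encode elongation factors, Eef1a1, Eef1a2 and Eef2. Eef1a1 (ENSMUSG00000037742.14, chromosome 9, 78478449 to 78489151, minus strand), which delivers aminoacyl-tRNA in most tissues, was at 539, 469 and 514 FPKM in knockdown libraries and at 509, 648 and 454 FPKM in control libraries. Eef1a2 (ENSMUSG00000016349.10, chromosome 2, 181147653 to 181157014, minus strand), the form that neurons and muscle use in the adult, was at 423, 445 and 452 FPKM in knockdown libraries and at 410.4, 449 and 499 FPKM in control libraries. The groups overlapped in both genes, and the highest library was control 2 for Eef1a1 but control 3 for Eef1a2. Over the 6 libraries, Eef1a1 stood above 99.8% and Eef1a2 above 99.7% of listed genes. Eef2, the translocase, came next, at 277, 282 and 283 FPKM in knockdown libraries and at 273, 315 and 275 FPKM in control libraries. The knockdown libraries lay close together inside the control range, of which control 2 was the top.

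The log2 ratio of Eef1a2 to Eef1a1 was -0.20 ± 0.14 in knockdown and -0.23 ± 0.34 in control libraries (SD, n = 3 each). The difference of 0.03 did not pass a two-sided exact permutation test (p = 1, adjusted over 3 ratios 1; the smallest p this design allows is 0.1). Its sign depended on the processing, with -0.05 after quantile normalization and a range of -0.12 to 0.22 when 1 library was left out (-0.12 without control 2, -0.03 without knockdown 2, -0.01 without control 1). By gene value, control 3 was the only library in which Eef1a2 exceeded Eef1a1, at a log2 ratio of 0.14. The listed transcripts summed there to 614 FPKM for Eef1a1 and 499 FPKM for Eef1a2. By such sums Eef1a1 was the higher in every library, so the level of the ratio depended on the scale.

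The eEF1B subunits exchange the nucleotide on eEF1A. Eef1g averaged 98.0 ± 4.37 FPKM in knockdown and 104 ± 9.64 FPKM in control libraries, and Eef1d 11.5 ± 0.94 and 12.2 ± 1.15 FPKM. Eef1b2 was at 49.4, 47.0 and 53.8 FPKM in knockdown libraries and at 53.6, 66.2 and 54.9 FPKM in control libraries. Knockdown 3 lay just above control 1, so the groups overlapped by that pair, and the log2 fold change of -0.21 had a limma adjusted p of 0.948. Exons of Eef1b2 overlap Ndufs1 on the other strand, and those of Eef1d overlap Naprt on the same strand, so reads could be shared there. Eef1e1, which works in the multisynthetase complex, was at 6.60 ± 0.17 FPKM in knockdown and 6.81 ± 0.36 FPKM in control libraries.

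All 7 genes listed as elongation factors, Eef1e1 among them, had a negative log2 fold change (median -0.07). But 3 were positive and the median was -0.01 both with one common FPKM sum and after quantile normalization. Without control 2, 2 of the 7 were positive. Of the 11 tested genes named Eef, 7 had their highest value in control 2 (63.6%), against 19 of the 60 translation factor genes (31.7%) and 20.02% of all genes. The cytosolic ribosomal protein genes were highest in control 2 in 79 of 79 cases. Their median difference from each gene's mean was -0.13, -0.19 and 0.03 log2 units in knockdown 1, 2 and 3, and -0.10, 0.37 and 0.03 in control 1, 2 and 3. For the 7 genes listed as elongation factors it was -0.04, -0.08 and -0.01 in the knockdown libraries and -0.05, 0.15 and 0.03 in the control libraries. Erythrocyte, striatal and choroid plexus markers were also highest in control 2, as given above. So were the summed microglia markers, at 213 FPKM there and 171 to 197 FPKM elsewhere. The part of these markers in the values was not tested. Among tested translation factor genes with a pyrimidine run at any of their annotated starts, 4 of 9 were highest in control 2 (44.4%). Of those with a promoter and no run, 11 of 38 were (28.9%). The difference was not tested and rests on few genes. Some, such as Eif4e, have a run at 1 annotated start and none at the start nearest their main transcript.

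**Figure D2:**
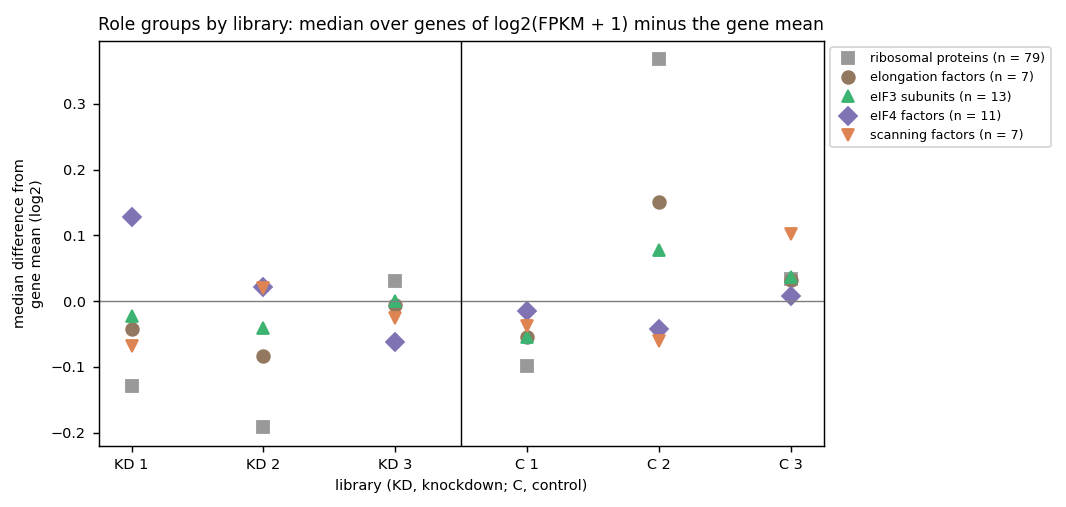
Median over the genes of a group of log2(FPKM + 1) minus each gene's mean (y axis) in knockdown libraries 1 to 3 and control libraries 1 to 3 (x axis), for ribosomal proteins and 4 groups of translation factors. Control 2 holds the highest values of ribosomal proteins (0.37), elongation factors (0.15, with Eef1e1 counted among them) and eIF3 subunits (0.08). The eIF4 factors are instead highest in knockdown 1 (0.13).

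Eef2k, the calcium and calmodulin dependent kinase that inactivates eEF2, was at 6.08, 4.78 and 4.53 FPKM in knockdown libraries and at 5.16, 3.46 and 5.33 FPKM in control libraries. The spread within the control group covered most of the range. Of the methyltransferases that modify eEF1A and eEF2, Eef1akmt1 had the highest level, at 27.6 ± 2.51 FPKM in knockdown and 27.9 ± 3.73 FPKM in control libraries. Eef1akmt2 averaged 9.35 ± 0.74 and 10.5 ± 1.81 FPKM, and Eef2kmt 1.58 ± 0.47 and 1.68 ± 0.39 FPKM. Eef1akmt4 had a mean under 1 FPKM and was not tested. It was at 0.675, 0.83 and 0.73 FPKM in knockdown libraries and at 0.50, 1.10 and 0.78 FPKM in control libraries, with exons shared with Gm49333 on the same strand.

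Among the factors that scan for and recognise the start codon, eIF1 and eIF1A hold the small subunit open, eIF5 triggers GTP hydrolysis by eIF2 and eIF5B joins the large subunit. Eif1 had the highest level, at 136, 157 and 184 FPKM in knockdown libraries and at 142, 192 and 175 FPKM in control libraries. Its close relative Eif1b averaged 87.1 ± 4.44 FPKM in knockdown and 93.7 ± 10.9 FPKM in control libraries. Eif1a and Eif1ax, autosomal and X-linked genes of eIF1A, were at 12.9 ± 1.63 and 19.9 ± 2.31 FPKM in knockdown libraries and at 12.6 ± 0.67 and 18.4 ± 0.69 FPKM in control libraries. Eif5b averaged 19.9 ± 2.46 FPKM in knockdown and 22.2 ± 1.47 FPKM in control libraries, and Eif1ad, a relative of eIF1A, 12.9 ± 0.83 and 12.7 ± 2.57 FPKM.

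Eif5 had the widest interval on the log2 scale and was singled out after its values were seen. It was at 21.5, 21.9 and 10.6 FPKM in knockdown libraries and at 24.4, 11.6 and 19.9 FPKM in control libraries. Knockdown 3 and control 2 thus stood at about the same low level and the other 4 libraries at about the same high level. Eif5-212, a transcript of 429 codons, was at 36.8, 36.2 and 3.03 FPKM in knockdown libraries and at 43.6, 14.9 and 31.8 FPKM in control libraries. The listed transcripts with those same coding exons summed to 38.8, 42.1 and 14.7 FPKM in knockdown and 44.6, 19.7 and 38.1 FPKM in control libraries, and were again lowest in knockdown 3 and control 2.

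eIF2 carries the initiator tRNA. Its subunit genes differed in level. By the sum of listed transcripts, Eif2s3y was below Eif2s1 in every library except knockdown 1 and 2 (8.35 against 14.2 FPKM in knockdown 3). By gene value, as given next, Eif2s1 was the lowest in every library. Eif2s2 (beta) averaged 17.6 ± 1.33 FPKM in knockdown and 17.7 ± 2.32 FPKM in control libraries, and Eif2s1, the alpha subunit that the stress kinases phosphorylate, 9.74 ± 0.61 and 9.33 ± 0.60 FPKM. The gamma subunit comes from a pair of sex-linked genes. Eif2s3x was at 16.5, 15.9 and 13.2 FPKM in knockdown libraries and at 13.5, 13.04 and 13.2 FPKM in control libraries. Knockdown 1 and 2 stood above the control range and knockdown 3 inside it (log2 fold change 0.18, limma adjusted p = 0.948). Eif2s3y was at 17.8, 18.2 and 15.8 FPKM in knockdown libraries and at 21.7, 12.4 and 15.7 FPKM in control libraries, a wider spread in the control group. Both genes carried a pyrimidine run at the RefSeq start (94212651 for Eif2s3x and 1010595 for Eif2s3y). Their listed transcripts start elsewhere, at 94212709 and 1010543. Eif2a, a separate initiator tRNA factor, averaged 7.27 ± 0.15 FPKM in knockdown and 6.90 ± 0.38 FPKM in control libraries, and Eif2d, which acts in non-canonical initiation and recycling, 3.78 ± 0.15 and 4.01 ± 0.34 FPKM. The 6 genes had a median log2 fold change of 0.06, with 4 positive.

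The eIF2B complex has 5 subunits, whose human genes are mutated in vanishing white matter disease. Eif2b4 (ENSMUSG00000029145.12, chromosome 5, 31187558 to 31193430, minus strand) encodes the delta subunit and had the smallest p of the whole set. It was at 6.81, 7.66 and 9.89 FPKM in knockdown libraries and at 9.86, 12.4 and 11.1 FPKM in control libraries. Knockdown 3 just exceeded control 1, and the other knockdown libraries lay below every control. The log2 fold change was -0.42 (95% interval -0.77 to -0.07, limma unadjusted p = 0.0236, adjusted p = 0.948), and between -0.56 and -0.32 with 1 library left out. Exons of Eif2b4 overlap Snx17 on the other strand, and use of strand in counting was not given in the sources used here. The gamma subunit gene Eif2b3 was at 2.62, 2.18 and 2.32 FPKM in knockdown libraries and at 1.97, 1.86 and 2.21 FPKM in control libraries (log2 fold change 0.16, limma adjusted p = 0.948), with knockdown 2 below control 3. Eif2b5, the catalytic subunit and the highest, averaged 16.3 ± 0.67 FPKM in knockdown and 17.5 ± 1.16 FPKM in control libraries. Eif2b1 was at 9.49 ± 0.41 and 9.76 ± 0.07 FPKM, and Eif2b2 at 10.05 ± 0.82 and 11.0 ± 1.02 FPKM.

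eIF3 is the scaffold that joins the small subunit to the cap complex, and 14 genes of it were listed. Eif3h was the highest by gene value, at 70.9, 73.5 and 78.4 FPKM in knockdown libraries and at 73.7, 95.6 and 80.4 FPKM in control libraries. Eif3f was at 43.6, 40.2 and 47.1 FPKM in knockdown libraries and at 45.0, 55.6 and 47.3 FPKM in control libraries. In both, control 2 was the highest library and the groups overlapped (for Eif3f, log2 fold change -0.17 and limma adjusted p = 0.948). The other tested subunits spread from 48.3 FPKM (Eif3c) to 10.4 FPKM (Eif3j1) in their mean gene values over the 6 libraries. By the sum of listed transcripts, Eif3k exceeded Eif3h in every library (122 against 87.6 FPKM in knockdown 1). Eif3b was at 30.3 ± 0.47 FPKM in knockdown and 30.4 ± 1.51 FPKM in control libraries, and Eif3c at 48.2 ± 1.55 and 48.4 ± 2.08 FPKM. Of 13 tested subunits, 11 had a negative log2 fold change (median -0.05), but with one common FPKM sum 8 were positive (median 0.01) and with median-of-ratios factors none was.

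Eif3j1, a loosely bound subunit, did not overlap between the groups, at 9.51, 10.5 and 10.5 FPKM in knockdown libraries and at 10.6, 11.0 and 10.5 FPKM in control libraries. Knockdown 2 and 3 almost reached control 3, and the log2 fold change was -0.07 (limma adjusted p = 0.948). Eif3j2 is a single-exon gene of 263 codons, where Eif3j1-201 has 8 exons and 261 codons. It was listed at 0, 3.60 and 0 FPKM in knockdown libraries and at 0 FPKM in each control library. Reads of near-identical copies may be split between them, so that 1 value is uncertain, and it had a mean below 1 FPKM and no test.

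The eIF4 factors bind the cap and unwind the mRNA. Eif4h, a cofactor of the helicase and the most abundant, was at 54.3, 50.7 and 47.9 FPKM in knockdown libraries and at 47.4, 49.0 and 51.7 FPKM in control libraries, and its relative Eif4b averaged 43.5 ± 4.03 and 39.8 ± 2.165 FPKM. The listed transcripts of the helicase Eif4a2 summed to more than those of its paralogue Eif4a1 in every library (97.6 against 43.7 FPKM in knockdown 1). By gene value, as given next, these paralogues were at nearly the same level. Eif4a1 was at 42.2, 36.0 and 37.4 FPKM in knockdown libraries and at 38.4, 36.1 and 39.6 FPKM in control libraries. Eif4a2, the form abundant in brain, was at 43.5, 40.4 and 36.1 FPKM in knockdown libraries and at 36.3, 34.4 and 37.4 FPKM in control libraries, with knockdown 1 and 2 above every control and knockdown 3 inside their range (log2 fold change 0.14, limma adjusted p = 0.948). The log2 ratio of Eif4a2 to Eif4a1 was 0.05, 0.16 and -0.05 in knockdown libraries and -0.08, -0.07 and -0.08 in control libraries. Every knockdown value was above every control value. The difference of 0.13 had p = 0.1 in a two-sided exact permutation test, the smallest this design allows (adjusted over 3 ratios, 0.3), and lay between 0.07 and 0.18 when 1 library was left out. Eif4a3, a core member of the exon junction complex, was lower, at 23.4, 25.1 and 23.1 FPKM in knockdown libraries and at 21.6, 24.0 and 27.6 FPKM in control libraries.

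Of the scaffolds, Eif4g2 lacks the eIF4E-binding region and was the most abundant, at 38.3, 35.9 and 31.1 FPKM in knockdown libraries and at 32.6, 30.3 and 30.6 FPKM in control libraries (log2 fold change 0.16, limma adjusted p = 0.948). Knockdown 3 fell inside the control range. Eif4g1 was at 31.3, 29.0 and 28.8 FPKM in knockdown libraries and at 28.5, 23.3 and 28.2 FPKM in control libraries, without overlap (log2 fold change 0.15, limma adjusted p = 0.948). The gap between the nearest libraries was smaller than the spread of either group. Eif4g3 was at 17.8, 17.4 and 16.5 FPKM in knockdown libraries and at 18.2, 17.9 and 23.4 FPKM in control libraries without overlap (log2 fold change -0.18, limma adjusted p = 0.948). Control 3 stood apart from the other 5 libraries.

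Among cap-binding proteins, Eif4e was the steadiest gene of its group, at 16.1, 15.8 and 15.8 FPKM in knockdown libraries and at 15.5, 14.4 and 16.0 FPKM in control libraries. Eif4e3 was at 9.55, 8.87 and 10.3 FPKM in knockdown libraries and at 10.2, 9.61 and 9.44 FPKM in control libraries, and it shares exons with Gm20696. Eif4e2, which binds the cap without eIF4G and represses translation, was at 6.45, 5.83 and 5.46 FPKM in knockdown libraries and at 5.69, 5.66 and 5.86 FPKM in control libraries. The groups overlapped in all 3. Over the 11 eIF4 genes, 8 had a positive log2 fold change (median 0.04), and 5 did without knockdown 1 (median -0.00), the library with the highest values of the group.

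The eIF4E-binding proteins (4E-BPs) compete with eIF4G for eIF4E until mTORC1 phosphorylates them. Eif4ebp2, the main form in brain, was the highest, at 8.66, 8.06 and 6.63 FPKM in knockdown libraries and at 7.57, 6.75 and 7.02 FPKM in control libraries. Eif4ebp1 was at 1.71, 1.03 and 1.00 FPKM in knockdown libraries and at 1.63, 1.26 and 0.91 FPKM in control libraries. Eif4ebp3 was at 1.24, 0.62 and 1.202 FPKM in knockdown libraries and at 1.03, 3.02 and 2.48 FPKM in control libraries. Control 2 and 3 stood above every knockdown library and control 1 among them, for a log2 fold change of -0.61 (limma adjusted p = 0.948). Its exons overlap another gene on the same strand, and all values were low. Eif4enif1, the transporter that carries eIF4E into the nucleus, averaged 7.58 ± 0.42 FPKM in knockdown and 7.02 ± 0.11 FPKM in control libraries.

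eIF5A, the hypusine-bearing factor, eases the ribosome through difficult stretches, and eIF6 keeps the ribosomal subunits apart. Eif5a was at 90.6, 91.6 and 100.1 FPKM in knockdown libraries and at 82.8, 106 and 109 FPKM in control libraries. Its paralogue Eif5a2 was far lower, at 5.79, 6.03 and 4.77 FPKM in knockdown libraries and at 4.68, 4.24 and 4.54 FPKM in control libraries, without overlap. Knockdown 3 lay just above control 1 (log2 fold change 0.25, 95% interval -0.01 to 0.50, limma adjusted p = 0.948). The log2 ratio of Eif5a2 to Eif5a was -3.87 ± 0.23 in knockdown and -4.18 ± 0.26 in control libraries (SD, n = 3 each). The difference of 0.31 had p = 0.2 in a two-sided exact permutation test (adjusted over 3 ratios, 0.3). Eif6 averaged 13.1 ± 1.38 FPKM in knockdown and 13.8 ± 1.53 FPKM in control libraries.

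**Figure D3:**
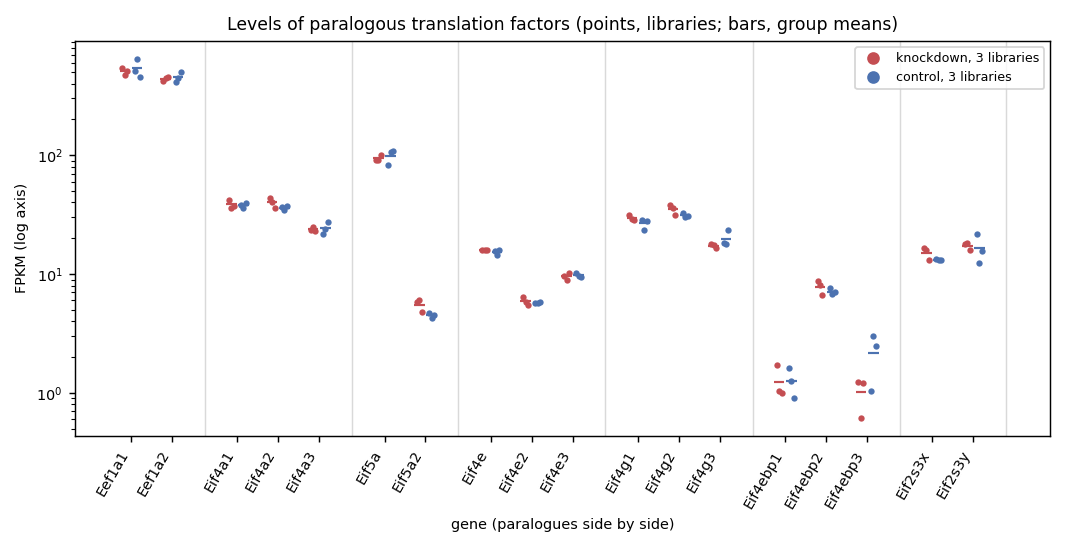
FPKM on a log axis (y) for 7 sets of paralogous translation factors (x axis), with points for single libraries, bars for group means, and knockdown left of control. By these gene values, the pairs Eef1a1 and Eef1a2, Eif4a1 and Eif4a2, and Eif2s3x and Eif2s3y lie at near-equal levels. Eif5a2 and the 4E-BP genes other than Eif4ebp2 lie far below their relatives. By sums of listed transcripts, which are not drawn, Eef1a1 lies above Eef1a2 and Eif4a2 above Eif4a1 in every library. Those of Eif2s3y lie below Eif2s3x in all libraries but knockdown 2.

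**Figure D4:**
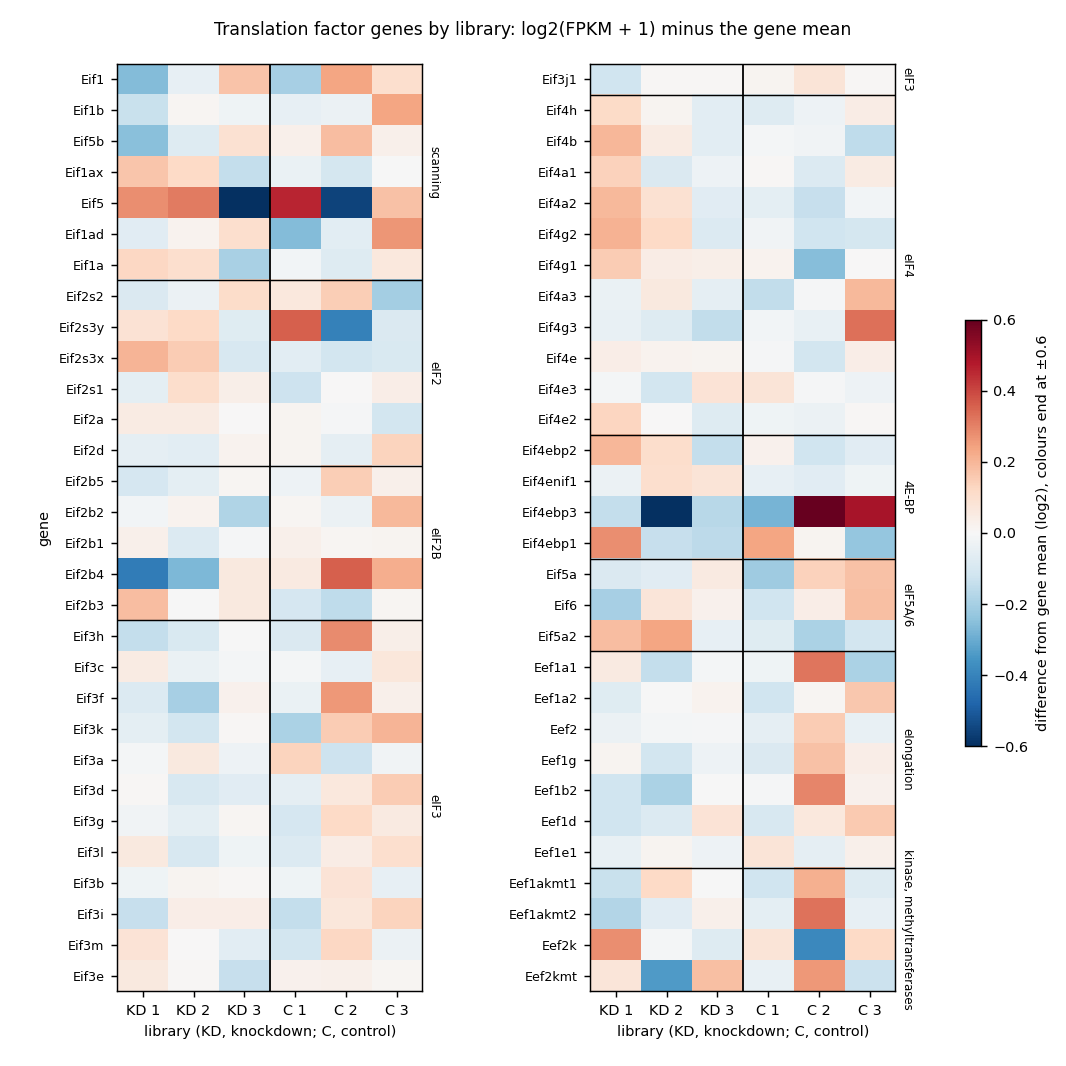
Difference of log2(FPKM + 1) from the gene's mean over 6 libraries (colour, ending at ±0.6) for the 60 tested translation factor genes (rows, by role and level) in knockdown (KD) libraries 1 to 3 and control (C) libraries 1 to 3. Few genes change colour between the groups. Eif5 is low in knockdown 3 and control 2, and elongation factors are mostly high in control 2.

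The genes around the factors were described from fixed lists, and limma called 0 in each at an adjusted p below 0.05 over all genes. Of 14 genes of the eIF2 kinases and the integrated stress response, 10 had a positive log2 fold change (median 0.06), but with a minimum mean of 5 FPKM 3 of 7 did (median -0.06), and 8 of 14 did after quantile normalization. Ppp1r15a, a phosphatase subunit that restores eIF2, was at 5.68, 4.74 and 3.42 FPKM in knockdown libraries and at 3.00, 3.74 and 3.84 FPKM in control libraries. Eif2ak3, the kinase of the endoplasmic reticulum stress response (PERK), averaged 3.53 ± 0.65 FPKM in knockdown and 2.94 ± 0.26 FPKM in control libraries. Of 16 genes of mTORC1 and MNK signalling, 13 were positive (median 0.05), against 9 without control 2 (median 0.03) and 10 with median-of-ratios factors. Tbc1d7, a subunit of the TSC complex that restrains mTORC1, was at 2.71, 2.57 and 1.92 FPKM in knockdown libraries and at 1.84, 1.74 and 1.62 FPKM in control libraries. The groups did not overlap (log2 fold change 0.30, limma adjusted p = 0.948). Deptor, an inhibitor within the mTOR complexes, averaged 3.98 ± 0.79 FPKM in knockdown and 3.19 ± 0.28 FPKM in control libraries.

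Of 5 genes of poly(A)-binding proteins and their partners, 3 were positive (median 0.09). Paip2, which pulls poly(A)-binding protein off mRNA and so dampens initiation, was at 32.1, 45.8 and 47.4 FPKM in knockdown libraries and at 30.2, 29.5 and 26.6 FPKM in control libraries. Knockdown 2 and 3 stood well above every control and knockdown 1 just above them, for a log2 fold change of 0.51 (limma unadjusted p = 0.0136, adjusted p = 0.948). Its paralogue Paip2b averaged 9.62 ± 1.69 FPKM in knockdown and 8.46 ± 0.25 FPKM in control libraries. The enzymes that place diphthamide on eEF2 and hypusine on eIF5A were divided, 5 positive and 5 negative over 10 rows, of which Dohh held 2; 7 were positive with one common FPKM sum and 2 after quantile normalization. Dhps, the deoxyhypusine synthase, was at 15.3, 15.4 and 14.6 FPKM in knockdown libraries and at 16.0, 16.2 and 17.4 FPKM in control libraries, without overlap, and the row of the hydroxylase Dohh with the smaller p averaged 23.9 ± 0.40 and 27.4 ± 5.29 FPKM. Of 9 genes of termination and recycling 5 were positive, and 8 were with one common FPKM sum or without control 3. Abce1, the recycling ATPase, was at 13.3 ± 1.19 FPKM in knockdown and 11.6 ± 0.50 FPKM in control libraries, and Gspt2, a release factor GTPase, at 8.63 ± 0.75 and 7.99 ± 0.57 FPKM. Of 10 mitochondrial translation factors 3 were positive, and 6 were with one common FPKM sum (median 0.02, against -0.02). The release factor relative Mtrf1l averaged 2.75 ± 0.29 FPKM in knockdown and 3.22 ± 0.15 FPKM in control libraries, and the elongation factor Gfm1 9.51 ± 0.54 and 8.66 ± 1.011 FPKM.

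At the level of single transcripts, limma called 0 of the 103 tested translation factor transcripts, against 0.103% of all 18476. The smallest adjusted p was 0.950, and 1 of the 103 had an unadjusted p below 0.05, against 3.81% of all. Every knockdown library was above every control in 6 transcripts, against 4.57% of all, and below in 1, against 4.22% of all. Eif4g3-215, a transcript of 1762 codons, was at 2.68, 1.27 and 1.63 FPKM in knockdown libraries and at 0.82, 0.48 and 0.02 FPKM in control libraries, without overlap (log2 fold change 1.00, limma unadjusted p = 0.0227, adjusted p = 0.950). Eif3m-204, of 143 codons, was at 2.94, 2.26 and 2.58 FPKM in knockdown libraries and at 1.92, 1.73 and 1.57 FPKM in control libraries, while the main Eif3m-201 was at 37.1 ± 1.89 and 36.7 ± 3.36 FPKM. Eef1a1-208, of 186 codons, was at 7.58, 7.34 and 6.51 FPKM in knockdown libraries and at 6.43, 4.80 and 5.26 FPKM in control libraries. It made up little of a gene whose main transcript Eef1a1-201 averaged 687 ± 46.4 and 727 ± 140.0 FPKM.

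Relative use of transcripts within a gene (diffSplice) passed in 0 of 24 translation factor genes, against 1.00% of all 4091 genes tested, and 2 of the 24 had an unadjusted p below 0.05, against 9.68% of all. The smallest adjusted p, 0.383, belonged to Eif2d. Its transcript Eif2d-203 was at 2.77, 1.57 and 5.16 FPKM in knockdown libraries and at 0.15, 1.25 and 1.57 FPKM in control libraries, and Eif2d-202 at 7.84, 8.74 and 4.98 FPKM in knockdown libraries and at 9.67, 8.70 and 10.6 FPKM in control libraries. The groups overlapped or touched in both. Eif2d exons overlap Rassf5 on the other strand. In Eef1b2, the short transcript Eef1b2-209 was at 7.89, 5.96 and 8.03 FPKM in knockdown libraries and at 2.44, 2.24 and 8.42 FPKM in control libraries. Control 3 was thus the highest of all 6, and without it the usage of Eef1b2 passed the threshold (diffSplice adjusted p = 0.0378), 1 of 97 genes over the whole table that did so in that setting. Eef1b2-204 carried most of the gene, at 57.2 ± 4.07 FPKM in knockdown and 66.3 ± 12.6 FPKM in control libraries.

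Some transcripts differed widely between libraries, also within a group. Of the 103 translation factor transcripts, 21 (20.4%) differed more than 10-fold between their highest and lowest library, in 13 genes, against 18.8% of all transcripts. None of the 60 gene values did, against 0.66% of all genes. The transcript values of a gene can sum to more than its gene value (169 against 90.6 FPKM for Eif5a in knockdown 1). They can also sum to less (1.27 against 7.35 FPKM for Eif2a in knockdown 2), so the scales are kept apart here. Eif2a-201, the only listed transcript of Eif2a, is among the 21, while the gene value varied by 1.14-fold. M21 holds 7 transcripts of Eif2a, so signal of unlisted transcripts is not seen here.

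Eif5a (ENSMUSG00000078812.10, chromosome 11, 69916714 to 69921958, minus strand) is given first, since its main transcripts differ in where they start and not in what they encode. Eif5a-209 was at 126, 9.28 and 147 FPKM in knockdown libraries and at 2.36, 21.3 and 155 FPKM in control libraries. Eif5a-210 was at 34.9, 147 and 33.4 FPKM in knockdown libraries and at 124, 158 and 42.0 FPKM in control libraries. Knockdown 1, knockdown 3 and control 3 were assigned mostly to Eif5a-209, and the other 3 libraries mostly to Eif5a-210. Both have 154 codons in the same coding exons, and the 8 listed transcripts with those exons summed to 167, 162 and 185 FPKM in knockdown and to 146, 187 and 201 FPKM in control libraries, a range of 1.38-fold. Their annotated 5′ ends lie 446 bases apart. The start regions are given as above, but here capitals mark the bases from the annotated start on; the RefSeq start for Eif5a-209 is 7 bases from that of the deposited transcript.
Eif5a-210, chr11:69921367-69921421, minus strand: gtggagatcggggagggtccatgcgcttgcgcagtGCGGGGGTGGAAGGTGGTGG
Eif5a-209, chr11:69920928-69920982, minus strand: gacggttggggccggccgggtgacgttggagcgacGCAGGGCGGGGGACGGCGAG
Neither had a pyrimidine run of 8 bases or more reaching within 5 bases of the start.

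In Eif4enif1 (ENSMUSG00000020454.17, chromosome 11, 3202392 to 3244588, plus strand) a different transcript held most of the level in each knockdown library. Eif4enif1-201, of 959 codons, was at 11.3, 0 and 0 FPKM in knockdown libraries and at 0.57, 0 and 0 FPKM in control libraries. Eif4enif1-203, of 983 codons, was at 0.50, 13.02 and 0 FPKM in knockdown libraries and at 9.91, 10.9 and 11.3 FPKM in control libraries. Eif4enif1-213, with the same coding exons as Eif4enif1-203, was at 0, 0 and 12.8 FPKM in knockdown libraries and at 0.16, 0.07 and 0 FPKM in control libraries. Control libraries were assigned mostly to Eif4enif1-203, and the gene value varied by 1.14-fold over all 6 libraries. The log2 fold change of Eif4enif1-203 was -2.08 (limma adjusted p = 0.950).

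In Eif4g3 (ENSMUSG00000028760.16, chromosome 4, 137993022 to 138208508, plus strand), Eif4g3-202 of 1578 codons was at 20.9, 21.1 and 15.9 FPKM in knockdown libraries and at 25.6, 0 and 0 FPKM in control libraries. Eif4g3-212, of 1002 codons and starting further downstream, was at 2.48, 2.31 and 3.38 FPKM in knockdown libraries and at 1.42, 25.4 and 11.4 FPKM in control libraries. Eif4g3-203, of 1579 codons, was at 3.28, 3.40 and 4.45 FPKM in knockdown libraries and at 2.25, 5.78 and 22.4 FPKM in control libraries. Control 1 therefore resembled the knockdown libraries. Without it Eif4g3-202 passed (log2 fold change 4.33, limma adjusted p = 0.0131), as did usage of the gene (diffSplice adjusted p = 0.000134). With control 1 left out, 27 transcripts and 67 usage genes passed over the whole tables, against 19 and 41 with all libraries.

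In Eif2b4, Eif2b4-202 (544 codons) was at 0.54, 0.43 and 10.1 FPKM in knockdown libraries and at 10.3, 12.7 and 4.63 FPKM in control libraries, and Eif2b4-201 (524 codons) at 5.41, 7.30 and 1.84 FPKM in knockdown libraries and at 1.83, 2.55 and 8.63 FPKM in control libraries. Knockdown 1 and 2, the libraries with the lowest gene value, were those with the least Eif2b4-202. In Eif4g2, Eif4g2-206 (868 codons) was at 57.4, 27.8 and 0.58 FPKM in knockdown libraries and at 32.0, 0.22 and 0.83 FPKM in control libraries, beside Eif4g2-213 (906 codons) at 22.6, 32.8 and 38.2 FPKM in knockdown libraries and 26.5, 38.0 and 38.0 FPKM in control libraries. Here, too, high and low libraries were found in both groups.

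**Figure D5:**
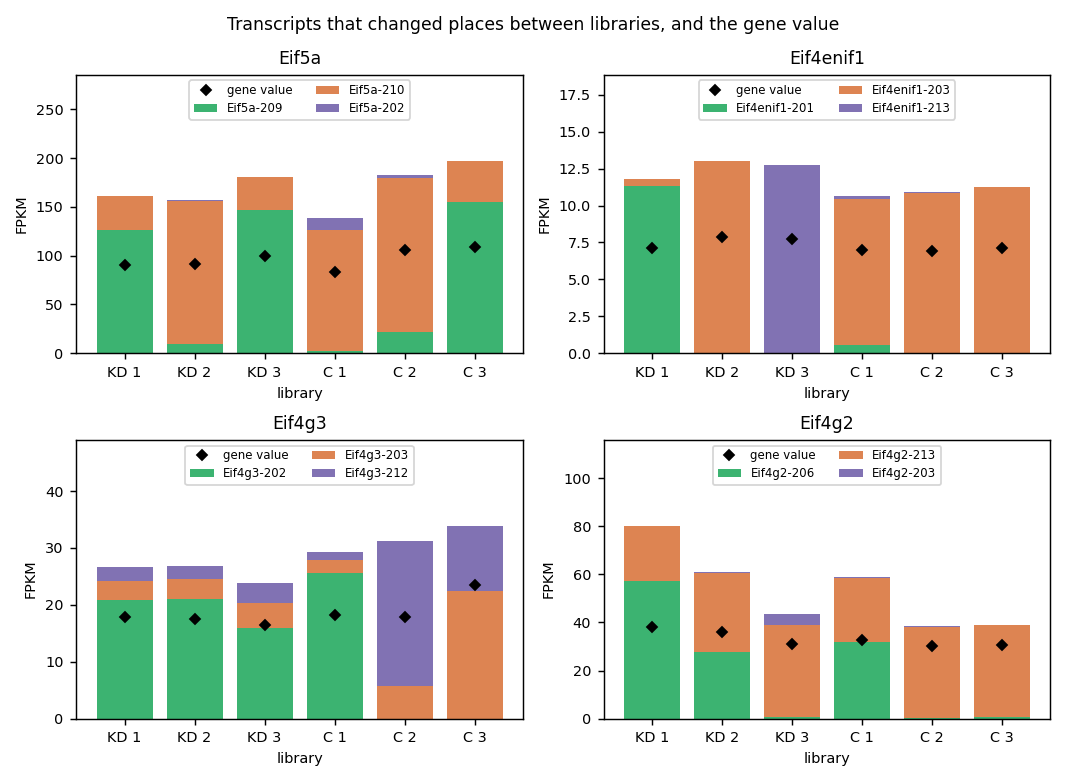
FPKM of 3 transcripts each (stacked bars) and of the gene (black diamonds, on its own scale) for Eif5a, Eif4enif1, Eif4g3 and Eif4g2, in knockdown (KD) libraries 1 to 3 and control (C) libraries 1 to 3. Colours trade places between libraries of one group, such as Eif5a-209 and Eif5a-210, while the gene values of these 4 genes vary by at most 1.42-fold (Eif4g3).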

How the data were processed

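Total RNA was made into strand-preserving libraries, per the labels' protocols. Both deposited tables held FPKM values, of genes and of transcripts, per the file headers. The submitters' processing notes list the tools StringTie, HISAT2, cutadapt and FastQC, with no version. Build, annotation and strand setting: not given in the sources used here. All 62 gene identifiers were found in GENCODE M21 (GRCm38), 53 with the same coordinates. Gene coordinates are the deposited ones, and codon counts and exon overlaps are those of M21. Each table had 1 empty line, which was left out, and listed no feature with both group means under 0.5 FPKM.

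Fold changes and p-values came from limma 3.58.1 (R 4.3.3), on log2(FPKM + 1), with a variance trend. Features needed a mean of 1 FPKM or more, and Benjamini-Hochberg adjustment ran over every tested feature. Relative transcript use was tested with diffSplice (Simes). Depth was unknown: at best 47.5% of a library's 40 lowest values lay within 0.1 of a whole multiple. The functions were tested on simulated data. Ratios were compared by exact permutation.

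Members, lists and tests were chosen with earlier results of these data known. Values per library are given for the 5 genes of smallest p in each direction, paralogue sets, Eef2 and Eef2k, the highest gene of each role, genes under 1 FPKM, the 5 usage genes and 5 transcripts of smallest p, and 2 genes per pathway list. Other genes are given as means, and Eif5, Eif4g2-206 and the Eif5a transcripts were added after their values were seen. Alternatives covered the pseudocount, the low-value filter, 3 other scalings, no trend, array weights, the replicate number as a block, and leaving out 1 library at a time.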

Additional observations from a re-analysis of the deposited data

How the results depend on the processing

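No translation factor gene was called by limma under any of the 15 alternatives run. The 12 translation factor genes with a printed fold change kept their direction in every alternative that tested them. They were printed for a small p or for groups without overlap in these same data, which favours a kept direction. Where groups do not overlap, leaving out 1 library cannot reverse the direction. The median log2 fold change of the set was 0.021 with one common FPKM sum, -0.061 with median-of-ratios factors and -0.011 after quantile normalization, against -0.04, and between -0.057 and -0.0048 when 1 library was left out. The number of genes without overlap, 4, was between 5 and 20 with 1 library left out (8 without knockdown 1, 20 without knockdown 3, 19 without control 1, 7 without control 3), where fewer libraries make separation easier. Without knockdown 3 they were 10 higher and 10 lower, against 16.8% and 10.1% of all genes, and without control 1 they were 5 higher and 14 lower, against 14.5% and 9.93%. Without knockdown 1 they were 3 higher and 5 lower, against 6.62% and 6.98% of all genes. Without control 3 they were 5 higher and 2 lower, against 10.8% and 9.08%. Called transcripts numbered 0 to 1 there (1 without control 1, Eif4g3-202), and called usage genes 0 to 1 (1 without control 1, Eif4g3, and 1 without control 3, Eef1b2). The Eef1a2 to Eef1a1 difference was reversed after quantile normalization (-0.050) and ranged from -0.12 to 0.22 with 1 library left out. The group labels share replicate numbers, but same-numbered libraries did not deviate together (correlations 0.18, -0.13 and -0.07), and with a replicate block 0 genes, 0 transcripts and 33 usage genes were called over the whole tables, against 0, 19 and 41, with 0 translation factors among them. Unknown read depth limits what low genes such as Eif4ebp3 and Eif3j2 can show.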
